A study of Mus musculus with 24 samples.

Results

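The genes described are 7 markers of Schwann cells and of the myelin they make: Mbp, Prx, Mag, Pmp22, Cnp, Ngfr and Sox10. They were taken by gene symbol from the deposited count tables, and 7 of 7 were found among 52976 symbols. All 7 also passed the filter on low counts, which kept 17592 genes. Messenger RNA had been sequenced from wound tissue of diabetic mice in 18 libraries. Hydrogel wounds (labelled Fmoc-KYF-AgNCs-3S1C-Hyd2 hydrogel, with TEOA in their titles) and untreated wounds (labelled Diabetic control) were sampled at days 1, 7 and 14, with 3 libraries in each of the 6 groups. The series concerns a peptide hydrogel with silver nanoclusters and an oxygen-tolerant hydrogenase, for light-driven hydrogen therapy, and all 6 wound groups carry the diabetes. The labels do not give the strain, age or sex of the mice, how diabetes was induced, or whether the 3 libraries of a group came from separate animals, so p-values measure the spread between libraries, which may be technical. The series also holds 6 libraries of the mouse macrophage line RAW264.7, with and without a hydrogel (3 each). Their control label names LPS. Their hydrogel labels differ from each other and from that of the wounds in their endings.

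Schwann cells are the glia of peripheral nerves. Myelinating Schwann cells wrap axons in a compact sheath and express its structural genes at very high levels, while non-myelinating and repair Schwann cells do not. Sox10 is the transcription factor that gives Schwann cells their identity, and with Egr2 it drives the myelin genes. Mbp (myelin basic protein) and Pmp22 (peripheral myelin protein 22) belong to compact myelin. Prx (periaxin) anchors the outer sheath to the basal lamina, Mag (myelin-associated glycoprotein) lies next to the axon, and Cnp (a cyclic nucleotide phosphodiesterase) lies in the uncompacted cytoplasm of the sheath. Ngfr is the neurotrophin receptor that rises in Schwann cells that lack myelin, and skin also has it in other cells. After a skin wound, cut nerve branches degenerate and Schwann cells lose their myelin programme before nerves regrow.

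On GRCm38 the files place Prx at 7:27497388-27520214 on the plus strand. Mag lies at 7:30899183-30914873 on the minus strand. Pmp22 (11:63128982-63159547, plus), Cnp (11:100574904-100591729, plus) and Ngfr (11:95571820-95587735, minus) share chromosome 11, and Sox10 lies at 15:79154908-79165240 on the minus strand. The counts cover annotated exons. For Ngfr the exons counted sum to 1168 bases, against 3446 bases in GENCODE M21 on the same build: the last exon there, 2278 bases at 11:95568818-95571095, was not among the exons counted. Ngfr values are therefore low relative to its transcript and rest on few read pairs. For the other 6 genes 88.4% to 100% of the M21 exon bases were counted. Cnp shares 463 exon bases (12.7%) with Dnajc7 on the other strand and Prx shares 321 (5.67%) with Gm15541, and read pairs over such stretches were left out by the authors' counting.

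The sequences before 4 of the start sites are shown because Prx, Mag, Cnp and Pmp22 varied together across libraries and because SOX10 and EGR2 are the textbook regulators of such genes. They are RefSeq windows on GRCm38.p6, 5′ to 3′, that end at a RefSeq start site or before it, where a counted exon begins inside the window. The Prx window holds no counted exon base but lies inside the gene as counted, whose first exon begins upstream at 7:27497388. RefSeq lists 3 windows for Mag and 4 for Pmp22, and 1 of each is printed, for Mag the 1 with an EGR match. Capitals mark matches to SOX letters (ACAAAG or ACAATG or TCAAAG or TCAATG) or to EGR letters (GTGGGNG), each on either strand, and no SOX match overlapped an EGR match.
Prx (chr7:27499074-27499323, plus strand): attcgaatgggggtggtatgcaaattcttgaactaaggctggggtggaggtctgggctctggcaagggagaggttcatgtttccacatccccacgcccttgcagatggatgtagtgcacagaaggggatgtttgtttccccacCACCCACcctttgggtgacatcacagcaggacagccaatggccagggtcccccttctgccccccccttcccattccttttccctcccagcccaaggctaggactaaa
Mag (chr7:30914874-30915113, minus strand): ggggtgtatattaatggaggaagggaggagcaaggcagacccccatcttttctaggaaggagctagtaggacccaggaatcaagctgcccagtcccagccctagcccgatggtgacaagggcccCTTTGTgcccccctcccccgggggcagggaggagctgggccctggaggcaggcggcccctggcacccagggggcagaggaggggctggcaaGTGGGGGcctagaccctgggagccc
Cnp (chr11:100574689-100574903, plus strand): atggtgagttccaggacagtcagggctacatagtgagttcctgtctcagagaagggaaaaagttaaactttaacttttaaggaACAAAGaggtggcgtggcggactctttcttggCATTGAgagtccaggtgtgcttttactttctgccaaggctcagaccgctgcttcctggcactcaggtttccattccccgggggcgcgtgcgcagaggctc
Pmp22 (chr11:63128732-63128981, plus strand): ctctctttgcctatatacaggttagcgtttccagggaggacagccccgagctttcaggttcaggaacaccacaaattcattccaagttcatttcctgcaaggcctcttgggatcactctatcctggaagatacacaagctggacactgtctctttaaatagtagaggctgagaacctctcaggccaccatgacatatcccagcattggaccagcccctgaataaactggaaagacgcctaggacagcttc
The window of Prx held 1 EGR match (CACCCAC), the printed window of Mag 1 SOX match (CTTTGT) and 1 EGR match (GTGGGGG), and that of Cnp 2 SOX matches (ACAAAG and CATTGA). The other 2 windows of Mag each held 1 SOX match and 0 EGR matches. None of the 4 RefSeq windows of Pmp22 held a match, and neither did that of Ngfr. Among all 32851 RefSeq windows of 250 bases, 39.4% held a SOX match, 28.1% an EGR match and 9.32% both, so a match in a single window is common. The matches describe these letters and show no binding.

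Depth and quality touch every value that follows. Library totals were 12.4 M to 27.1 M counted read pairs. The 3 control day 7 libraries differed by little more than sampling noise, and they were kept as separate libraries. Their median biological coefficient of variation over genes, the spread beyond counting noise, was 4.78%. It was 7.95% in hydrogel day 7, 8.32% in hydrogel day 14 and 28.7% to 30% in the other groups. Control day 14 replicate 1 stood apart: its summed level over 8 fibroblast markers was 48390 CPM, against 18270 and 10640 CPM in replicates 2 and 3, and over 10 hair follicle markers it was 5.57 CPM, against 459.1 and 1163 CPM. Control day 1 replicate 1 stood apart in skeletal muscle markers (8011 CPM over 12 genes, against 267200 and 159300 CPM) and adipocyte markers (77510 CPM over 10 genes, against 14170 and 7496 CPM). CPM here is a gene's count of read pairs scaled to its library's total, with TMM (trimmed mean of M-values) factors for the makeup of the library. In bulk tissue, fewer cells of a type and less RNA per cell cannot be told apart.

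Markers of oligodendrocytes, the central counterpart of Schwann cells, were counted as well. Of the oligodendrocyte list, Mog had 8, Olig2 3, Opalin 1, Ermn 17, Hapln2 39 and Mobp 55 read pairs summed over all 18 wound libraries. Mal, which peripheral myelin also uses, had 6609 read pairs and Cldn11, a tight junction protein, had 106. The defining central markers were thus at or near 0. Low counts of them would also be found in skin without Schwann cells, so they do not test the Schwann cell label. Pmp22, Mbp, Cnp and Mag also had read pairs in the macrophage line described below.

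Pmp22 was the most abundant of the 7 genes per length of exon. Over the 18 wound libraries its median was 108 CPM per kilobase, against 16.2 for Mbp, 11.5 for Cnp, 8.37 for Sox10, 8.31 for Prx, 1.11 for Mag and 0.866 for Ngfr. The Ngfr value is per counted kilobase, with the last exon missing. The range over libraries was wide: the highest library was 18-fold above the lowest for Mbp, 13.6-fold for Pmp22, 11.8-fold for Prx, 11.4-fold for Mag, 9.83-fold for Sox10 and 9.45-fold for Cnp. For Ngfr it was 35.3-fold, between libraries of 125 and 2 read pairs.

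**Figure D1:**
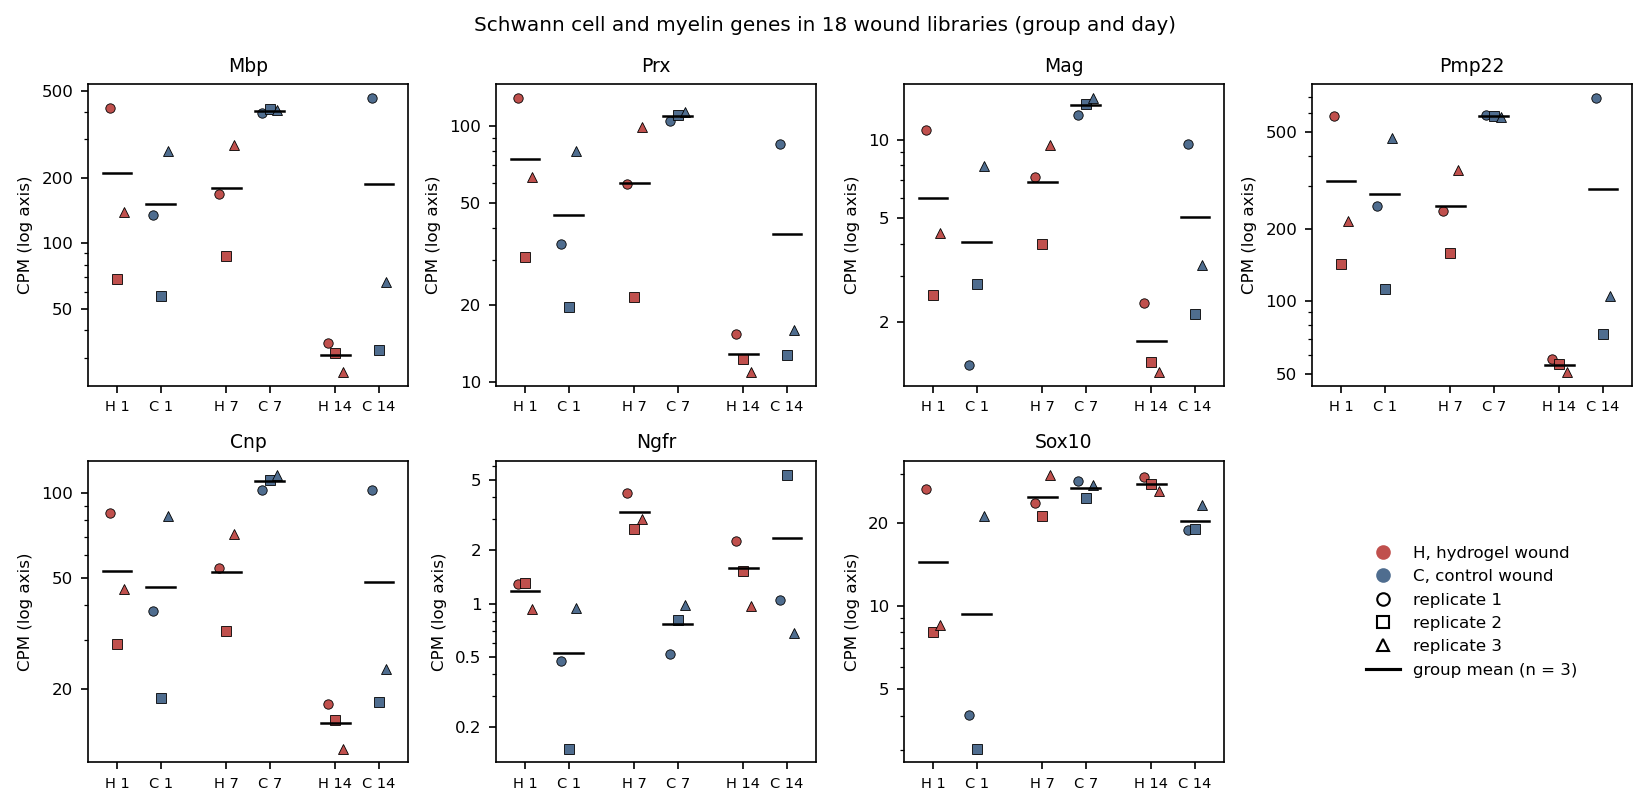
Level of each gene in CPM (log axis) in the 18 wound libraries, with hydrogel (H) left of control (C) at days 1, 7 and 14, 1 point per library shaped by replicate, and a bar at the group mean (n = 3). The 5 myelin genes share 1 pattern with a low hydrogel day 14 group, between 25.7 and 34.9 CPM for Mbp, while Sox10 in that group lay between 26.0 and 29.2 CPM.

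The 5 structural genes of myelin (Mbp, Prx, Mag, Pmp22 and Cnp) gave the same order at both ends. The first of them, Mbp, lies at 18:82475146-82585637 on the plus strand of GRCm38. Control day 7 had the highest group mean and hydrogel day 14 the lowest for each of them. Mbp averaged 209 ± 185 CPM in hydrogel and 152 ± 104 CPM in control wounds at day 1, 179 ± 97.4 and 406 ± 8.40 CPM at day 7, and 30.7 ± 4.65 and 187 ± 239 CPM at day 14 (SD, n = 3 each). The 4 groups between the ends overlapped and their means differed by less than their SDs. The control day 7 mean was also passed by single libraries of other groups, hydrogel day 1 replicate 1 (419.3 CPM) and control day 14 replicate 1 (462.5 CPM).

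Summed over these 5 genes, the hydrogel day 14 libraries had 128, 116 and 101 CPM, the 3 lowest sums of the 18 libraries. Control day 14 held both the highest sum, 1350 CPM in replicate 1, and 2 low sums, 139 and 214 CPM in replicates 2 and 3. The sums were 274 to 1230 CPM in hydrogel and 211 to 910 CPM in control wounds at day 1, and 303 to 811 CPM in hydrogel and 1210 to 1230 CPM in control wounds at day 7. Within a group the highest sum was 4.49-fold the lowest in hydrogel day 1, 4.31-fold in control day 1, 2.68-fold in hydrogel day 7, 1.02-fold in control day 7, 1.27-fold in hydrogel day 14 and 9.71-fold in control day 14.

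The proportions of the structural genes to each other varied less than their levels. The ratio of Mbp to Pmp22 in CPM lay between 0.442 and 0.804, a 1.82-fold range, while each of the pair moved more than 10-fold. The range was 2.46-fold for Prx over Mbp, 2.76-fold for Cnp over Mbp and 6.74-fold for Mag over Mbp, where control day 1 replicate 1 was the lowest, at 0.0101 against 0.0486 and 0.0302 in replicates 2 and 3. Sox10 over Mbp ranged 34.1-fold, from 0.0297 in control day 1 replicate 1 to 1.01 in hydrogel day 14 replicate 3, and Ngfr over Mbp ranged 126-fold. As a description over the same 18 libraries, which share their groups, days and depth, Pearson's r of log2 CPM was 0.993 for Mbp and Pmp22, 0.988 for Mbp and Cnp, 0.973 for Mbp and Prx and 0.909 for Mbp and Mag. After the group means were taken out, these were 0.990, 0.978, 0.969 and 0.840. Mbp and Sox10 had r = 0.173, or 0.555 within groups, and Mbp and Ngfr had -0.167, or -0.0526 within groups.

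**Figure D2:**
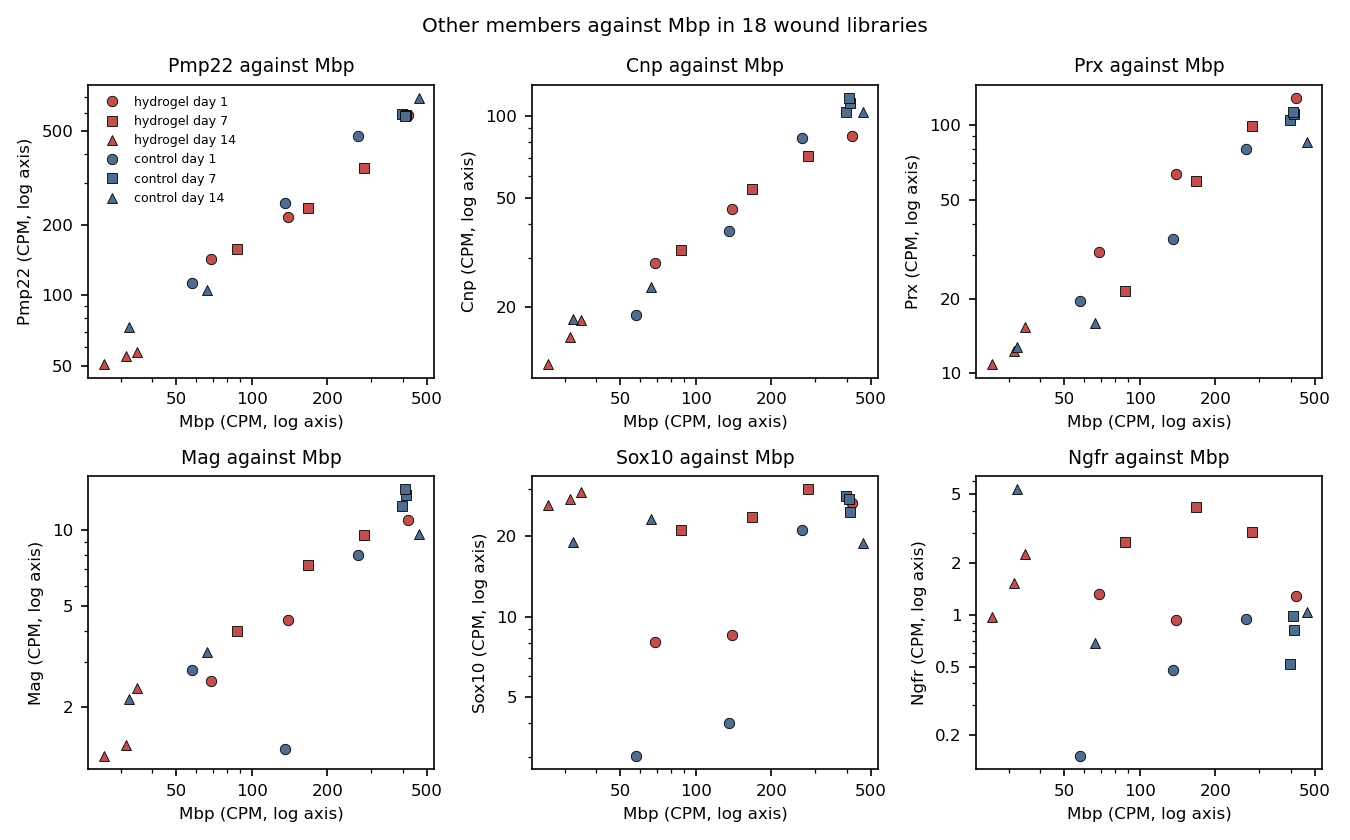
Level of each other gene against Mbp in the 18 wound libraries (both in CPM, log axes), hydrogel in red and control in blue, with circles for day 1, squares for day 7 and triangles for day 14. Pmp22, Cnp, Prx and Mag lie along a line with Mbp, and the hydrogel day 14 libraries sit at its low end, whereas they have among the highest Sox10 levels, 26.0 to 29.2 CPM.

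The genes of the whole table most like each member were picked by r over the 18 libraries. For Mbp they were Pmp22 (0.993), Cnp (0.988) and Mal (0.974). For Prx they were Mbp, Cnp and Nkain2 (0.965), and for Pmp22 they were Mbp, Cnp and Drp2 (0.970). Cnp was nearest to Mbp, Mal (0.988) and Pmp22. For Mag they included Cldn19 (0.969) and Kif19a (0.962). Of 17591 other genes 33 reached r of 0.9 with Mbp, and 9 of these were among the 20 genes of the wider myelin sheath list. For Prx, Mag, Pmp22 and Cnp the numbers were 25, 33, 34 and 38, with 7 to 9 from that list. For Sox10 only 4 genes reached 0.9, none from that list, and the nearest were Sox2 (0.962), Prss12 (0.926) and Gas2l3 (0.907). No gene reached 0.9 with Ngfr, whose nearest were Paqr7 (0.843), Zfp385b (0.842) and Emb (0.830).

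At day 1, hydrogel and control wounds could not be told apart in any of the 7 genes. Mbp had 419.3, 68.59 and 139.9 CPM in hydrogel wounds, against 135.2, 57.70 and 264.0 CPM in control wounds. Pmp22 had 585.0, 142.9 and 215.3 CPM in hydrogel wounds, against 248.3, 112.7 and 475.4 CPM in control wounds. In both arms 1 library was high in all 5 structural genes, replicate 1 of the hydrogel wounds and replicate 3 of the control wounds, and the groups overlapped. The same libraries were high in Sox10, with 26.46, 8.048 and 8.539 CPM in hydrogel wounds, against 4.009, 3.033 and 21.04 CPM in control wounds. Ngfr had 1.289, 1.315 and 0.9315 CPM in hydrogel wounds, against 0.4756, 0.1516 and 0.9505 CPM in control wounds, from 58 and 24 read pairs in all.

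By edgeR's quasi-likelihood test with Benjamini-Hochberg adjustment over the whole table, 0 of the 7 genes passed at day 1, and 0 had an unadjusted p under 0.05. DESeq2 also called 0. Of all genes 7.55% passed, 4.53% higher and 3.02% lower in hydrogel wounds, and the groups of 17.1% did not overlap. The 7 log2 fold changes were all above 0, between 0.17 for Pmp22 and 1.12 for Ngfr, with a median of 0.54 against 0.0415 over all genes. The intervals were wide: the 95% interval of the log2 fold change ran from -1.28 to 2.19 for Mbp and from -1.34 to 1.69 for Pmp22. Without hydrogel day 1 replicate 1 the estimate turned below 0 for Mbp (-0.542), Pmp22 (-0.634), Cnp (-0.318), Mag (-0.226) and Sox10 (-0.175). Without control day 1 replicate 2 it did so for Pmp22 (-0.201) and Cnp (-0.187), and without control day 1 replicate 3 Sox10 passed (2.01, edgeR adjusted p = 0.0144).

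At day 7 the 5 structural myelin genes were lower in every hydrogel library than in every control library, but none passed the test, and Ngfr rose in hydrogel wounds. Mbp had 167.8, 87.31 and 281.1 CPM in hydrogel wounds, against 396.8, 413.5 and 406.8 CPM in control wounds. Pmp22 had 235.6, 158.2 and 349.7 CPM in hydrogel wounds, against 588.9, 583.4 and 581.8 CPM in control wounds. Hydrogel replicate 2 was the lowest and replicate 3 the highest for all 5 genes, while the control libraries were close together. Prx had 59.51, 21.39 and 98.74 CPM in hydrogel wounds, against 104.8, 110.2 and 112.9 CPM in control wounds. Cnp had 53.91, 32.15 and 71.42 CPM in hydrogel wounds, against 102.9, 111.7 and 116.2 CPM in control wounds. Mag, the least abundant of the 5, had 7.250, 3.976 and 9.554 CPM in hydrogel wounds, against 12.49, 13.82 and 14.52 CPM in control wounds. For all 5 the highest hydrogel library lay below the lowest control library. Groups that did not overlap were common, 70.2% of all genes at day 7.

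The log2 fold changes of these 5 genes at day 7 were -1.18 for Mbp (SE 0.826), -1.24 for Pmp22 (SE 0.724), -1.07 for Cnp (SE 0.610), -0.98 for Mag (SE 0.656) and -0.87 for Prx (SE 0.711). The edgeR adjusted p-values were 0.216 for Cnp, 0.227 for Pmp22, 0.294 for Mag, 0.313 for Mbp and 0.391 for Prx. With only the 6 day 7 libraries in the model, where the residual spread is that of these libraries alone, 4 of the 7 passed: Mag, Pmp22 and Cnp fell and Ngfr rose. Most genes of the whole table also passed in that model, so these 4 calls are not particular to the 7 genes. Sox10 had 23.47, 21.11 and 29.80 CPM in hydrogel wounds, against 28.19, 24.52 and 27.44 CPM in control wounds. Its groups overlapped, and its log2 fold change was -0.11 with a 95% interval of -1.29 to 1.08.

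Ngfr had 4.235, 2.632 and 3.006 CPM in hydrogel wounds at day 7, against 0.5206, 0.8129 and 0.9775 CPM in control wounds, from 151 and 33 read pairs in all. Every hydrogel library was above every control library. The log2 fold change was 2.08 (SE 0.691, edgeR adjusted p = 0.0431), and Ngfr was the 1 gene of the 7 that passed, where 21.6% of all genes passed, 9.86% rose and 11.7% fell. The call is close to the threshold: it was lost, at adjusted p-values of 0.0503 to 0.142, when any library of hydrogel day 7 or control day 7, hydrogel day 1 replicate 2 or 3, or hydrogel day 14 replicate 1 or 2 was left out, with log2 fold changes of 1.86 to 2.28. With the day 7 libraries summed within each group it was 2.04 (edgeR adjusted p = 0.763).

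**Figure D3:**
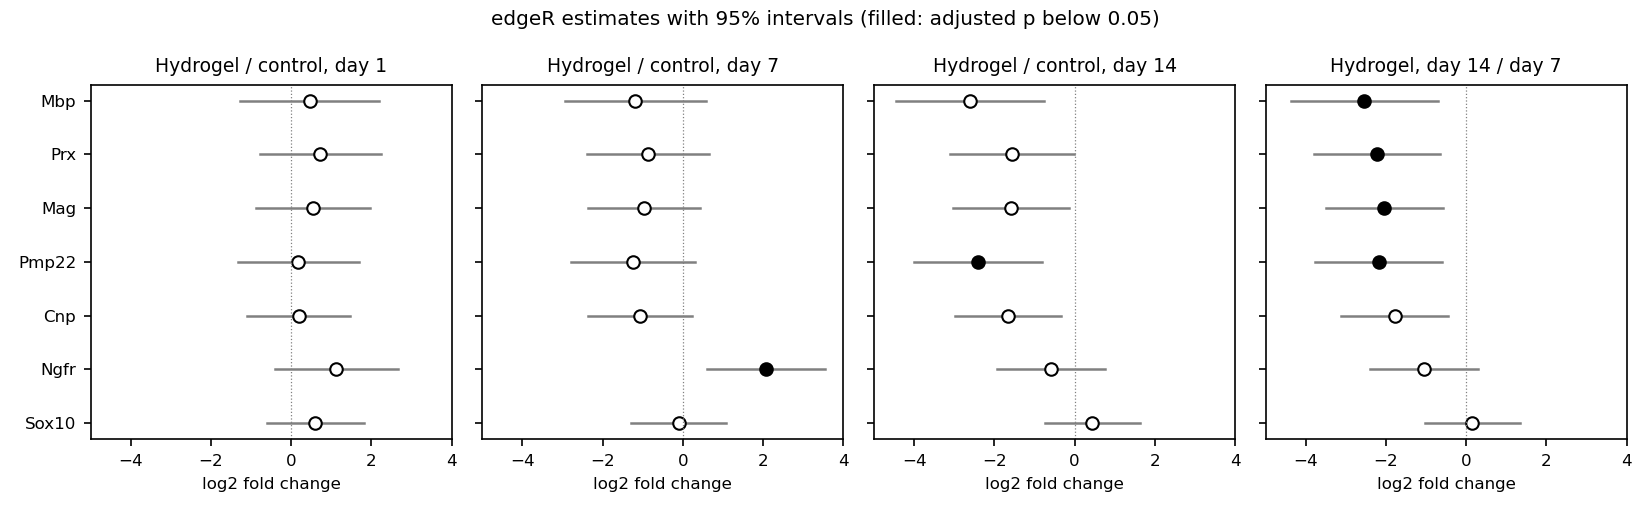
edgeR log2 fold changes (points) with 95% intervals (lines) of the 7 genes for hydrogel over control at days 1, 7 and 14 and for hydrogel day 14 over day 7, filled where the adjusted p is below 0.05. At day 14 and for day 14 over day 7 the estimates of the 5 structural genes lie between -1.56 and -2.61, while Sox10 lies at 0.44 and 0.15. At day 7 Sox10 lies at -0.11, and at day 1 at 0.60, inside the range of the 5 structural genes there.

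Day 7 hydrogel and control wounds also differed in markers of other cells, whose part in the values above was not tested. All 8 fibroblast and all 8 macrophage markers fell in hydrogel wounds, as did 7 of 8 endothelial and 9 of 10 adipocyte markers. The summed fibroblast level was 1470 to 1710 CPM in hydrogel wounds and 10500 to 10600 CPM in control wounds. On the other side 7 of 8 basal keratinocyte markers and 8 of 12 melanocyte markers rose. The summed basal keratinocyte level was 7580 to 7660 CPM in hydrogel wounds and 712 to 723 CPM in control wounds.

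At day 14 the hydrogel wounds had uniformly low myelin transcripts, and the control wounds were split. Mbp had 34.93, 31.47 and 25.72 CPM in hydrogel wounds, against 462.5, 32.50 and 66.37 CPM in control wounds. Pmp22 had 57.59, 55.21 and 50.86 CPM in hydrogel wounds, against 693.2, 73.49 and 105.3 CPM in control wounds. Control replicate 1 was high, while control replicates 2 and 3 were near the hydrogel libraries. The Mbp groups overlapped and the Pmp22 groups did not. Prx had 15.39, 12.29 and 10.88 CPM in hydrogel wounds, against 85.00, 12.72 and 15.94 CPM in control wounds. Mag had 2.368, 1.404 and 1.278 CPM in hydrogel wounds, against 9.690, 2.141 and 3.298 CPM in control wounds. Cnp had 17.80, 15.53 and 12.29 CPM in hydrogel wounds, against 102.9, 18.07 and 23.54 CPM in control wounds. Control replicate 1 was the highest library for each of the 3 genes. The groups of Prx and Mag overlapped, and the groups of Cnp did not.

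Pmp22 fell at day 14, with a log2 fold change of -2.41 (SE 0.751, edgeR adjusted p = 0.0399). It was the 1 gene of the 7 that passed, where 16.1% of all genes passed, 5.83% rose and 10.3% fell, and the groups of 43.7% of all genes did not overlap. Mbp, at -2.61 (edgeR adjusted p = 0.0518), Cnp, at -1.66 (0.0786), Mag, at -1.58 (0.122) and Prx, at -1.56 (0.152), did not pass. The median over the 7 genes was -1.58, against 0.0287 over all genes. The values rest on control day 14 replicate 1: without it Pmp22 was at -0.713 (edgeR adjusted p = 0.502), Mbp at -0.688, Mag at -0.695, Cnp at -0.453 and Prx at -0.158, and 0 of the 7 passed. The Pmp22 call was also lost, with log2 fold changes of -2.36 to -2.45 and adjusted p-values of 0.0533 to 0.138, without any 1 of the hydrogel day 14 or control day 7 libraries or hydrogel day 7 replicate 1. Without control day 14 replicate 2 or 3, 3 of the 7 passed (Mbp, Pmp22 and Cnp), as they did with DESeq2. The 16.1% belongs to the edgeR fit with all libraries. With each library left out in turn, 806 to 4322 of 17592 genes passed at day 14.

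Sox10 at day 14 had 29.17, 27.48 and 26.00 CPM in hydrogel wounds, against 18.74, 19.01 and 23.09 CPM in control wounds. Every hydrogel library was above every control library, yet the log2 fold change of 0.44 did not pass (SE 0.555, edgeR adjusted p = 0.617). Control replicate 1, the library with the most Mbp, had the least Sox10 of the 3. Ngfr had 2.250, 1.528 and 0.9668 CPM in hydrogel wounds, against 1.044, 5.353 and 0.6871 CPM in control wounds. Control replicate 2 held the highest Ngfr level of all 18 libraries, the groups overlapped, and the log2 fold change of -0.59 (edgeR adjusted p = 0.553) turned to 0.871 without that library.

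Markers of other cells differed beside these genes at day 14 too. All 8 fibroblast and all 8 macrophage markers fell in hydrogel wounds, and 4 of 8 endothelial markers fell, while 4 of 10 hair follicle and 3 of 12 melanocyte markers rose. The summed macrophage level was 38.6 to 55.5 CPM in hydrogel wounds, against 1554, 425.5 and 205.4 CPM in the control replicates 1, 2 and 3. The summed melanocyte level was 1470 to 1850 CPM in hydrogel wounds and 156 to 612 CPM in control wounds. Melanocytes also use Sox10, and their part in its level was not tested.

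**Figure D4:**
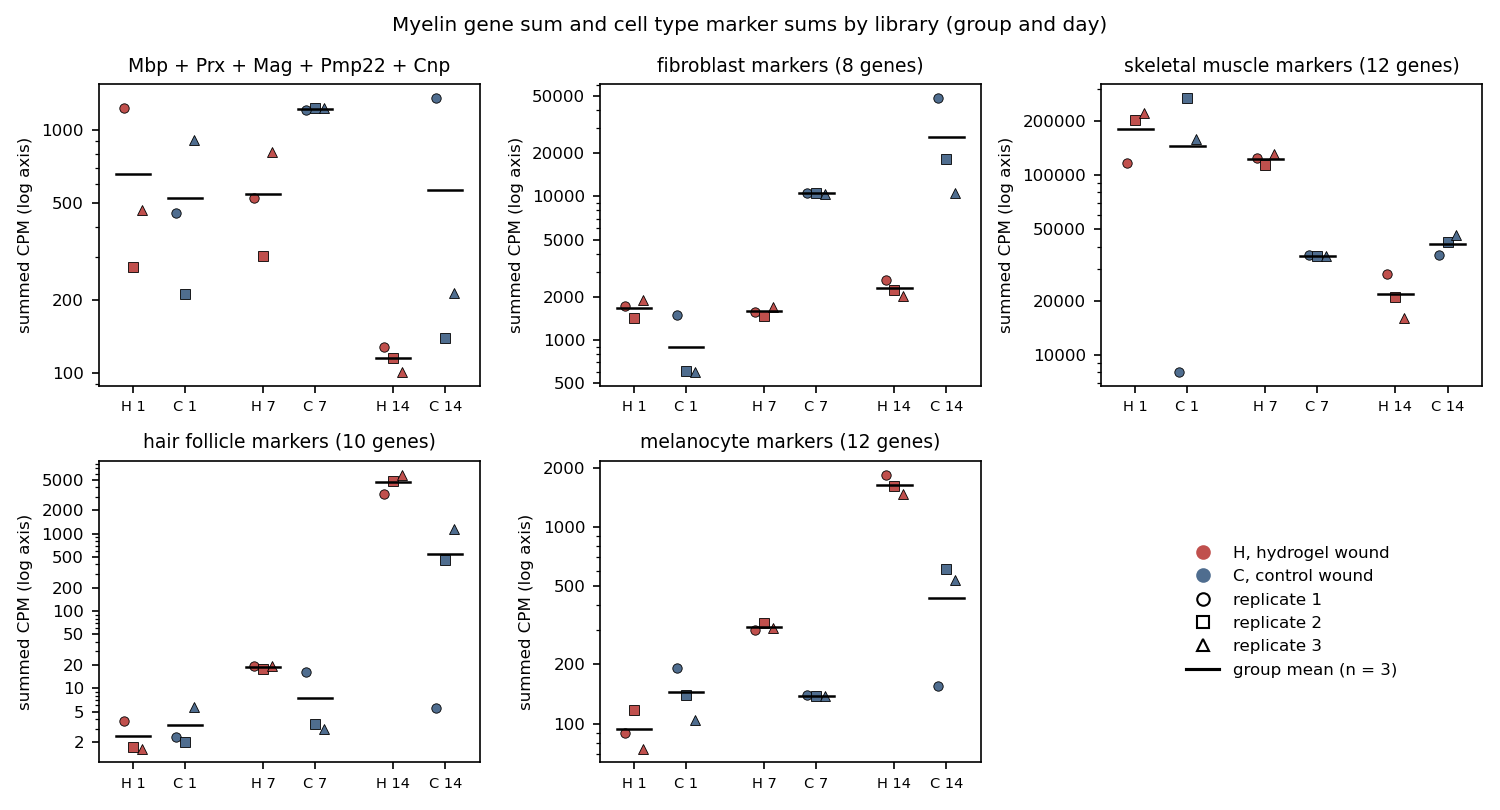
Summed CPM (log axis) of the 5 structural myelin genes and of the fibroblast, skeletal muscle, hair follicle and melanocyte marker lists in the 18 wound libraries, with hydrogel (H) left of control (C) at days 1, 7 and 14 and bars at group means. Control day 14 replicate 1 has the highest myelin sum, 1350 CPM, together with the highest fibroblast sum, 48390 CPM, and a hair follicle sum of 5.57 CPM.

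The size of the hydrogel difference was also compared between the days in 1 joint test. It passed for 0 of the 7 genes, where 15.8% of all genes passed. The edgeR adjusted p-values were 0.122 for Ngfr, 0.168 for Mbp, 0.183 for Pmp22, 0.232 for Prx, 0.233 for Mag, 0.263 for Cnp and 0.755 for Sox10, and Ngfr was the 1 gene with an unadjusted p under 0.05 (0.0349). DESeq2 also called 0. The day 7 call of Ngfr and the day 14 call of Pmp22 were therefore not shown to be particular to a day.

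Within hydrogel wounds, 4 myelin genes fell between day 7 and day 14. The log2 fold change of day 14 over day 7 was -2.54 for Mbp (SE 0.863, edgeR adjusted p = 0.0476), -2.22 for Prx (SE 0.740, 0.0445), -2.04 for Mag (SE 0.685, 0.0457) and -2.18 for Pmp22 (SE 0.745, 0.0483). Cnp, at -1.79 (edgeR adjusted p = 0.0528), did not pass. For all 5 genes every day 14 library lay below every day 7 library, as the values above show. Of all genes 21.3% passed, 11.7% rose and 9.6% fell, and the groups of 68.8% did not overlap. Sox10 averaged 27.6 ± 1.59 CPM at day 14 and 24.8 ± 4.49 CPM at day 7 (SD, n = 3 each), a log2 fold change of 0.15 with a 95% interval of -1.03 to 1.33. Ngfr averaged 1.58 ± 0.643 CPM at day 14 and 3.29 ± 0.839 CPM at day 7 (edgeR adjusted p = 0.248).

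These 4 calls lie near the threshold. None of the 7 passed when any 1 library of control day 7 or hydrogel day 14, hydrogel day 7 replicate 1 or 3, or hydrogel day 1 replicate 3 was left out, and 1 passed without hydrogel day 7 replicate 2. In the same wounds 9 of 12 skeletal muscle, 6 of 8 endothelial and 4 of 8 macrophage markers fell, while 10 of 10 hair follicle and 8 of 12 melanocyte markers rose, and their part was not tested. The summed muscle level was 16100 to 28100 CPM at day 14 and 113000 to 131000 CPM at day 7.

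Between day 1 and day 7 the hydrogel wounds showed no call among the 7 genes. The log2 fold changes of day 7 over day 1 lay between -0.34 for Pmp22 and 1.48 for Ngfr, and 0 of 7 passed with edgeR, 0 with DESeq2 and 1 (Ngfr) at an unadjusted p under 0.05, where 18.3% of all genes passed, 7.76% rose and 10.5% fell. Ngfr averaged 3.29 ± 0.839 CPM at day 7 and 1.18 ± 0.214 CPM at day 1 (SD, n = 3 each), and its groups did not overlap (40.3% of all genes). Its edgeR adjusted p was 0.127. Mbp, Pmp22, Prx and Cnp had day 1 and day 7 ranges that overlapped.

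In control wounds the direction between days 1 and 7 was upward for all 7 genes, without a call. The log2 fold change of day 7 over day 1 was 1.74 for Mag (edgeR adjusted p = 0.0594), 1.51 for Sox10 (0.0561), 1.41 for Mbp (0.203), 1.29 for Prx (0.181), 1.25 for Cnp (0.131), 1.07 for Pmp22 (0.270) and 0.52 for Ngfr (0.616). Of all genes 31.6% passed, 15% upward and 16.6% downward, and 2 of the 7 had an unadjusted p under 0.05. In all genes but Ngfr the groups did not overlap, which held for 49.8% of all genes. DESeq2 called 2 of the 7. Leaving out control day 1 replicate 3, the library high in myelin genes, gave 3 calls (Sox10 at 2.92, Mag at 2.71 and Cnp at 1.96). Of single libraries of other groups, control day 14 replicate 1 gave 2 calls when left out, hydrogel day 1 replicate 1 gave 2, and replicate 2 of that group gave 1. The 31.6% belongs to the edgeR fit with all libraries, and the shares for DESeq2 and for each of these fits are not given here. With each library left out in turn, 3304 to 7953 of 17592 genes passed in this comparison. The calls among the 7 genes were therefore not shown to be particular to them.

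Between day 7 and day 14 in control wounds 0 of the 7 passed with all libraries, by edgeR and by DESeq2, and 2 had an unadjusted p under 0.05 (Mag and Ngfr). Of all genes 12.2% passed, 6.33% upward and 5.87% downward, and the groups of 33.6% did not overlap. The log2 fold change of day 14 over day 7 was -1.12 for Mbp, -1.01 for Pmp22, -1.20 for Cnp, -1.44 for Mag, -1.53 for Prx, -0.40 for Sox10 and 1.61 for Ngfr. Without control day 14 replicate 1, 6 of the 7 passed. Pmp22 (-2.71, edgeR adjusted p = 0.00607), Cnp (-2.40, 0.00643), Prx (-2.93, 0.00764), Mbp (-3.03, 0.0101) and Mag (-2.32, 0.0252) fell, and Ngfr rose (1.96, 0.0486). In that fit the 2 remaining control day 14 libraries are assumed to vary like the other groups. Its share of calls over all genes is not given here, and the 12.2% belongs to the fit with all libraries. With each library left out in turn, 769 to 4765 of 17592 genes passed in this comparison. The 6 calls were therefore not shown to be particular to the 7 genes.

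The wider myelin sheath list has 20 genes and holds none of the 7. Its summed level was 1550 to 2140 CPM in hydrogel and 1320 to 1340 CPM in control wounds at day 7, and 903 to 1430 and 806 to 1120 CPM at day 14, so it was not lower in hydrogel wounds, unlike the sum of the 5 structural genes. The counts of this list and of those that follow stand beside 4.53% of all genes that rose and 3.02% that fell at day 1, 9.86% and 11.7% at day 7, and 5.83% and 10.3% at day 14. At day 1 none of its genes passed, with a median log2 fold change of 0.61. At day 7 the median was -0.81 against 0.0121 over all genes, and 2 genes rose: Fa2h, a fatty acid hydroxylase also active in sebaceous glands (5.80, edgeR adjusted p = 0.0146), and Mpp6, a scaffold protein (0.61, 0.0451). Neither is particular to myelin. At day 14 the median was -1.53 and 3 genes fell: Nfasc, a node and paranode adhesion protein (-2.18, 0.0326), Dhh, the Schwann cell hedgehog ligand (-1.94, 0.0357), and Drp2, the periaxin partner of the outer sheath (-2.53, 0.0362). Between day 7 and day 14 in hydrogel wounds 10 of the 20 fell and none rose, with a median of -1.85 against 0.0115 over all genes. Among the 10, named after their values were seen, were Pmp2, Cldn19, Gjc3, Drp2, Ncmap, Nfasc, Mpp6, Dhh and Aatk. The lists share their libraries with the members and are no independent sign of them.

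Of 15 regulators of the myelin programme, 4 rose and 2 fell in hydrogel wounds at day 7. Egr2, the zinc finger factor that acts with SOX10, averaged 61.6 ± 5.43 CPM in hydrogel and 9.56 ± 0.687 CPM in control wounds (SD, n = 3 each; log2 fold change 2.69, edgeR adjusted p = 0.00755). Pou3f1, a POU factor of promyelinating Schwann cells, was at 2.73 (edgeR adjusted p = 0.0102), and Erbb2, part of the neuregulin receptor, at 1.64 (0.0107). Adam22, the receptor of the Schwann cell ligand Lgi4, was at -1.5 (edgeR adjusted p = 0.00818). Keratinocytes also use Egr2, Pou3f1 and Erbb2, and 7 of 8 basal keratinocyte markers rose beside them. At day 14, 0 of 15 rose and 4 fell: Adam22 (-1.56, edgeR adjusted p = 0.00775), Nfatc4 (-1.16, 0.0100), Zeb2 (-1.44, 0.0254) and Lgi4 (-1.19, 0.0433). At day 1 Nfatc4, a calcineurin target, rose (0.97, edgeR adjusted p = 0.0421) and none fell.

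Of the genes of all Schwann cells or of non-myelinating ones, 14 of 15 were in the files and all 14 were tested. At day 1 none passed. At day 7 Scn7a, a sodium channel of non-myelinating Schwann cells, fell (-2.21, edgeR adjusted p = 0.0220), as did the adhesion molecule Ncam1 (-1.49, 0.0226). Tfap2a, a factor of neural crest and keratinocytes, rose (4.0, edgeR adjusted p = 0.00818). At day 14, 4 fell, among them Scn7a (-2.57, edgeR adjusted p = 0.0143), Col28a1 (-2.10, 0.0154) and Gap43 (-2.82, 0.0491), while the glial ligand receptor Gfra3 rose (2.49, 0.00422). In the repair list of 10 genes, Jun, the factor that drives the repair state, rose at day 1 (1.53, edgeR adjusted p = 0.0270). It averaged 259 ± 180 CPM in hydrogel and 89.9 ± 20.5 CPM in control wounds (SD, n = 3 each), and many skin cells express it. At day 7 the neurotrophin Bdnf was the 1 gene of that list to rise (2.53, edgeR adjusted p = 0.0193), and at day 14 none passed.

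Ngfr binds neurotrophins. Of 15 neurotrophin ligands, receptors and partners 0 passed at day 1, 4 rose and 3 fell at day 7, and 1 rose and 1 fell at day 14. The joint test over days passed for 2 of the 15, where 15.8% of all genes passed. At day 7 Lingo1, a co-receptor of Ngfr, rose (2.80, edgeR adjusted p = 0.00322), as did Ntf5, also called neurotrophin-4 (1.9, 0.0183), and Bdnf. At day 14 Bex3, a protein that binds Ngfr, rose (1.00, edgeR adjusted p = 0.0309).

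Axon genes were scarce, and 8 of 15 passed the count filter. At day 1 Tubb3, the neuronal tubulin, rose (3.61, edgeR adjusted p = 0.0300) and Calcb, a sensory neuropeptide gene, fell (-4.55, 0.0119). At day 7 Calcb rose (4.38, edgeR adjusted p = 0.0247), while Stmn2, a growth cone protein, fell (-2.89, 0.00523) and Sncg fell (-4.27, 0.00734), with 13.2 ± 6.32 CPM in hydrogel and 255 ± 5.67 CPM in control wounds. Sncg is also an adipocyte gene, and 9 of 10 adipocyte markers fell beside it. Tubb3 averaged 0.0438 ± 0.038 CPM in control wounds at day 1, and Calcb 0.0459 ± 0.0397 CPM in control wounds at day 7 (SD). The Tubb3 rise at day 1 and the Calcb rise at day 7 are therefore measured from levels near 0. At day 14 Tubb3 rose (2.91, edgeR adjusted p = 0.00494), and Uchl1 (-2.85, 0.0226) and Prph (-1.94, 0.0316), both genes of axons, fell. The summed level of the 15 genes at day 14 was 19.8 to 23.0 CPM in hydrogel and 24.2 to 52.4 CPM in control wounds.

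The macrophage line gave the level of the 7 genes in 1 cell type that is not a Schwann cell. In the 6 RAW264.7 libraries Ngfr had 0 read pairs and Sox10 had 1 in all, and Prx had 6 to 18 per library (0.294 to 0.752 CPM). Pmp22 had 178 to 304 CPM, Mbp 34.2 to 41.3 CPM, Cnp 19.8 to 26.6 CPM and Mag 4.57 to 8.02 CPM. The cell libraries were scaled apart from the wounds, so the levels are set side by side without a test. In hydrogel day 14 wounds Mbp was at 25.7 to 34.9 CPM and Cnp at 12.3 to 17.8 CPM. Mag was at 1.28 to 2.37 CPM and Pmp22 at 50.9 to 57.6 CPM there. For Cnp, Mag and Pmp22 these levels were below those in the cell line. The part of macrophage transcripts in the wound values was not tested. No group comparison was made in the cell line, whose control label names LPS and whose hydrogel labels end in Hyd3, Hyd4 and Hyd5.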

How the data were processed

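Read pairs had been counted per gene symbol by the authors, and the deposited values are raw counts. The submitters' processing notes name Trim Galore 0.6.10, FastQC 0.11.9, HISAT2 2.2.1, SAMtools 1.9, featureCounts 2.0.6 and the build mm10. Per the file headers the counts cover exons of GENCODE M25, without strand, and pairs that mapped to several places or genes were not counted. Samples were grouped by their titles. The 7 genes, the gene lists and the tests were chosen with earlier results of these data known.

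Genes were kept with filterByExpr (minimum count 10, minimum total 15) of edgeR 4.0.16 in R 4.3.3. edgeR's robust quasi-likelihood F test used TMM scaling and 1 mean for each of the 6 groups of wound libraries, which left 12 residual degrees of freedom. The threshold was 0.05 on p-values adjusted by Benjamini and Hochberg over 17592 genes, and only a gene past it is said to have risen or fallen. Library totals, 12.4 M to 27.1 M pairs, set the counting precision, which is lowest for Ngfr. Alternatives were RLE size factors, no filter, DESeq2 1.42.0, only the groups compared, replicate number as a block, day 7 libraries summed, and each library left out. The fit was tested on simulated data. Up to 4 genes per list and hydrogel comparison were named by smallest adjusted p among those past the threshold, oligodendrocyte genes by counts, and the 3 genes most like each member by Pearson's r of log2 CPM (prior count 2), predicted and clone-based symbols left out. A few genes of these lists are not reported here.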

Additional observations from a re-analysis of the deposited data

How the results depend on the processing

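Of 1176 values of the 7 genes under the alternatives, 1033 kept their direction and their side of the threshold, 72 lost a call, 48 gained one and 23 changed direction. The cause was not tested. The number of the 7 genes called moved as follows. For hydrogel against control at day 7 (1 called) it was 4 with only the groups compared and 0 with the replicate block or with the day 7 libraries summed. At day 14 (1 called) it was 2 with RLE size factors, 3 with DESeq2, and 0 without a filter, with only the groups compared, with the replicate block or with day 7 summed. For hydrogel day 14 against day 7 (4 called) it was 3 with RLE size factors, 5 with DESeq2, 5 with the replicate block, 6 with only the groups compared, 0 without a filter and 0 with day 7 summed. For hydrogel day 7 against day 1 (0 called) it was 1 with only the groups compared. For control day 7 against day 1 (0 called) it was 2 with DESeq2 and 2 with the replicate block. With 1 library left out the counts ranged over 0 to 1 at day 1, 0 to 1 at day 7 and 0 to 3 at day 14, 0 to 1 for hydrogel day 7 against day 1, 0 to 5 for day 14 against day 7, 0 to 3 for control day 7 against day 1, 0 to 6 for control day 14 against day 7, and 0 to 1 for the joint test over days. With fewer than 3 libraries in a group, the group is assumed to vary like the others.

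Over the whole table, calls moved by more than 1.5 times with only the groups compared (0 against 1329 at day 1, 11122 against 3792 at day 7, 433 against 2836 at day 14, 10697 against 3742 for hydrogel day 14 against day 7, and 1292 against 2146 for control day 14 against day 7). With the day 7 libraries summed they were 14, 0 and 549 at days 1, 7 and 14, 1 for hydrogel day 7 against day 1, 0 for day 14 against day 7, 97 (against 5553) for control day 7 against day 1, 0 for control day 14 against day 7 and 27 (against 2785) for the joint test. Without a filter they were 715 at day 1 and 2039 (against 3221) for hydrogel day 7 against day 1, and with DESeq2 2626 at day 1 and 4664 for the joint test. With 1 library left out they ranged over 425 to 3012 at day 1, 1859 to 5572 at day 7, 806 to 4322 at day 14, 999 to 5169 for hydrogel day 7 against day 1, 1298 to 5407 for day 14 against day 7, 3304 to 7953 for control day 7 against day 1, 769 to 4765 for control day 14 against day 7 and 1619 to 5295 for the joint test. Counts at an unadjusted p under 0.05 where 0 were called were 1701 at day 1 with only the groups compared, and 1347 at day 7, 2419 for hydrogel day 14 against day 7 and 1683 for control day 14 against day 7 with day 7 summed (edgeR).

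Directions changed for estimates near 0 (log2 scale). With 1 library left out they also changed for estimates further from 0. Among these were Sox10 at day 1, at 0.60 with all libraries, and Ngfr at day 14, at -0.59. Between days 7 and 1 in hydrogel wounds Cnp was at 0.0413 with RLE size factors, 0.0551 without a filter, 0.0404 with DESeq2, 0.0517 with only the groups compared and 0.0574 with the replicate block, and Mbp was at 0.0258 with the block. With 1 library left out that comparison ranged over -0.309 to 0.490 for Cnp, -0.147 to 0.989 for Mag, -0.717 to 0.771 for Mbp, -0.692 to 0.461 for Pmp22 and -0.877 to 0.341 for Prx. Hydrogel against control at day 1 ranged over -0.318 to 0.903 for Cnp, -0.226 to 1.51 for Mag, -0.542 to 1.12 for Mbp, -0.634 to 0.800 for Pmp22 and -0.175 to 2.01 for Sox10, and at day 14 over -1.03 to 0.871 for Ngfr.

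The replicate numbers were not taken to pair the libraries, since not every pair was over 0.1: the correlation of deviations from group means was -0.102 to 0.374 over 45 pairs of libraries with the same number, 8 of them over 0.1, with a median of 0.0109. Over 90 pairs with different numbers it was -0.36 to 0.292, 7 of them over 0.1, with a median of -0.00528. With the block the Ngfr value at day 7 was 2.08 (edgeR adjusted p = 0.0502) and the Pmp22 value at day 14 was -1.96 (0.0563). Depth limits Ngfr most, with 2 to 125 read pairs per wound library.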
